A study of Mus musculus with 2 samples.

Results

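Solute carriers are the genes whose symbols run from Slc1 upward, and they encode membrane proteins that move amino acids, sugars, nucleosides, vitamins, metals and other ions across the plasma membrane and the membranes of organelles. Of 342 genes in the table with a symbol of the form Slc, number, a, number, 150 had a mean of at least 1 FPKM over the CD80high and the CD80low library and are described here. FPKM counts sequenced fragments relative to transcript length in kilobases and to library depth, so levels of different genes can be set side by side. Because the mean level chose the 150 genes, the levels are a description. The limit was set on the mean and not on the difference between the libraries, but near it a gene could pass through its level in 1 library. The genes were chosen with earlier results of these data known. Of all 21829 symbols in the table, 9955 reached the same mean.

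The cells were splenic marginal zone B cells of male C57BL/6 mice, primary, wild type and untreated, divided by the surface protein CD80 into a CD80high and a CD80low population. CD80 is a costimulatory protein, and marginal zone B cells lie at the edge of the splenic white pulp, where they meet blood-borne antigen. Each population had 1 library, made with a directional messenger RNA kit, so no difference below has a replicate check and no test was made. Neither the number of mice behind a library nor any further sort marker is given in the labels. The comparison addresses how the gene expression of the populations differs.

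A solute carrier works either as a coupled transporter, which uses the gradient of sodium, protons or another solute, or as an exchanger or facilitator that lets a solute follow its own gradient. In lymphocytes the supply of amino acids, glucose, iron and nucleosides through these proteins is known to be raised after activation. Carriers of the Slc25 family sit in the inner mitochondrial membrane and link the cytosol with the matrix, and several families work in lysosomes, the Golgi or the endoplasmic reticulum.

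CD80high held roughly 25500000 fragments in all and CD80low roughly 25200000, as estimated from the steps of low FPKM values, since the files hold no counts. All 6 B cell markers were abundant in both libraries, summing to 4340 against 4852 FPKM in CD80high and CD80low, and 5 of 6 marginal zone markers were higher in CD80high, with sums of 1754 and 1676 FPKM. Cr2, which encodes the complement receptor CD21, stood at 807 against 837 FPKM. Fcer2a, which encodes CD23 and marks follicular B cells, was lower in CD80high, at 58.6 against 118.5 FPKM. Markers of other cells were low and mostly higher in CD80high. The sums were 5.46 against 0.693 FPKM for 8 T cell markers (8 higher), 28.2 against 5.92 FPKM for 8 natural killer cell markers (7 higher) and 27.3 against 15.4 FPKM for 14 macrophage and monocyte markers (14 higher). They were 4.18 against 0.527 FPKM for 7 neutrophil markers (6 higher, Ly6g at 0 in both), 7.20 against 4.38 FPKM for 8 erythroid markers (7 higher), 0.593 against 0.170 FPKM for 5 platelet markers (5 higher) and 3.37 against 1.81 FPKM for 6 endothelial and stromal markers (6 higher). In bulk libraries such as these, fewer cells of a type and less RNA per cell cannot be told apart, and the part of such cells, follicular B cells included, in the differences below was not tested.

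The expressed genes covered most of the family tree. Of 48 numbered families in the table, 40 had at least 1 gene at a mean of 1 FPKM. Mitochondrial carriers were the family with most expressed genes, with 37 of 47. All 5 Slc35a genes, all 4 Slc29 genes, all 4 Slc37 genes, all 3 Slc41 genes, all 3 Slc43 genes and both Slc20 genes were expressed, as were 10 of 14 Slc39 and 6 of 10 Slc30 zinc transporter genes. By contrast, 3 of 25 Slc22 genes (organic ion transporters best known from kidney and liver) and 2 of 19 Slc6 genes (mainly neurotransmitter and amino acid transporters) reached the limit. None of the 5 Slc13 and none of the 5 Slc24 genes did. Of the 192 genes under the limit, 108 were listed at 0 in both libraries, and of the other 84, 57 were higher in CD80high and 27 in CD80low. The same split over all genes under the limit is not given here, so these counts have no background beside them. Over all rows, 13734 were above 0 FPKM in CD80high and 13244 in CD80low.

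**Figure D1:**
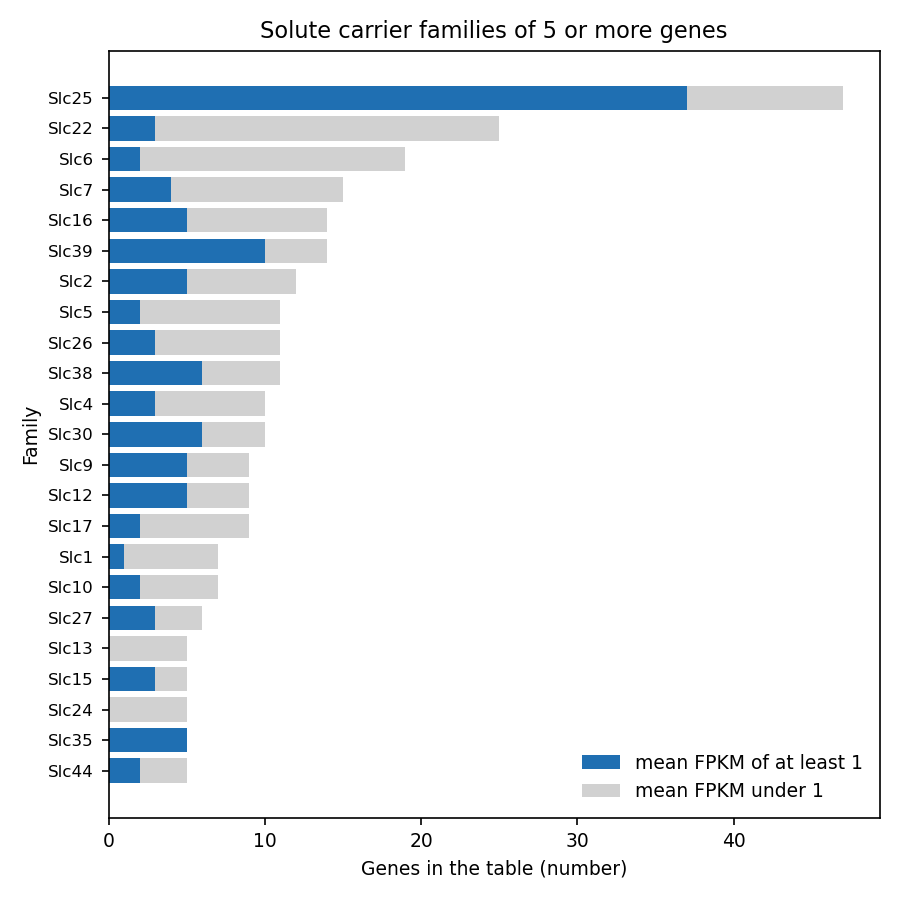
Number of genes in each solute carrier family with 5 or more genes in the table (horizontal axis), divided into genes whose mean reached 1 FPKM (blue) and under it (grey); 3 expressed symbols with letters after the number are left out. Slc25 has 37 of 47 genes in blue, against 3 of 25 for Slc22 and 2 of 19 for Slc6.

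The limit of 1 FPKM cut through a thin range. Just inside it lay Slc6a13, a GABA transporter gene (1.22 FPKM in CD80high against 0.826 in CD80low), Slc22a3, an organic cation transporter gene (1.35 and 0.883 FPKM), and Slc25a24, a mitochondrial ATP-magnesium and phosphate carrier gene (0.969 and 1.32 FPKM). Just outside it lay Slc12a5, a potassium chloride cotransporter gene best known from neurons (1.39 and 0.372 FPKM), Slc9a5 (0.867 and 0.703 FPKM) and Slc3a1 (0.699 and 0.677 FPKM). Slc12a5 was the only gene under the limit to exceed 1 FPKM in a library.

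Further under the limit, carriers that mark other spleen cells were near 0 in CD80low. Slc40a1, the iron exporter ferroportin of red pulp macrophages, had 0.749 FPKM in CD80high against 0.0781 in CD80low. Slc11a1, a metal transporter of macrophage phagosomes, had 0.197 and 0 FPKM, and Slc4a1, the anion exchanger of red cells, had 0.116 and 0 FPKM. Slc7a11, the cystine transporter gene that many cultured cells use, was close to 0 in both (0.00586 and 0.00572 FPKM).

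Levels among the 150 genes were steeply graded. A mean above 100 FPKM was found for 8 genes, 70 genes lay between 10 and 100 FPKM and 72 between 1 and 10 FPKM. The 8 highest together made up 40.2% of the summed level of all 150 in CD80high and 40.6% in CD80low. The order from the top was Slc25a5, Slc25a3, Slc44a2, Slc28a2, Slc1a5, Slc38a2, Slc3a2 and Slc15a4. Without replicates it is not known which neighbours in this order differ beyond the spread between samples. Slc1a5, Slc38a2 and Slc3a2 lay at 136, 132 and 132 FPKM in CD80high.

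**Figure D2:**
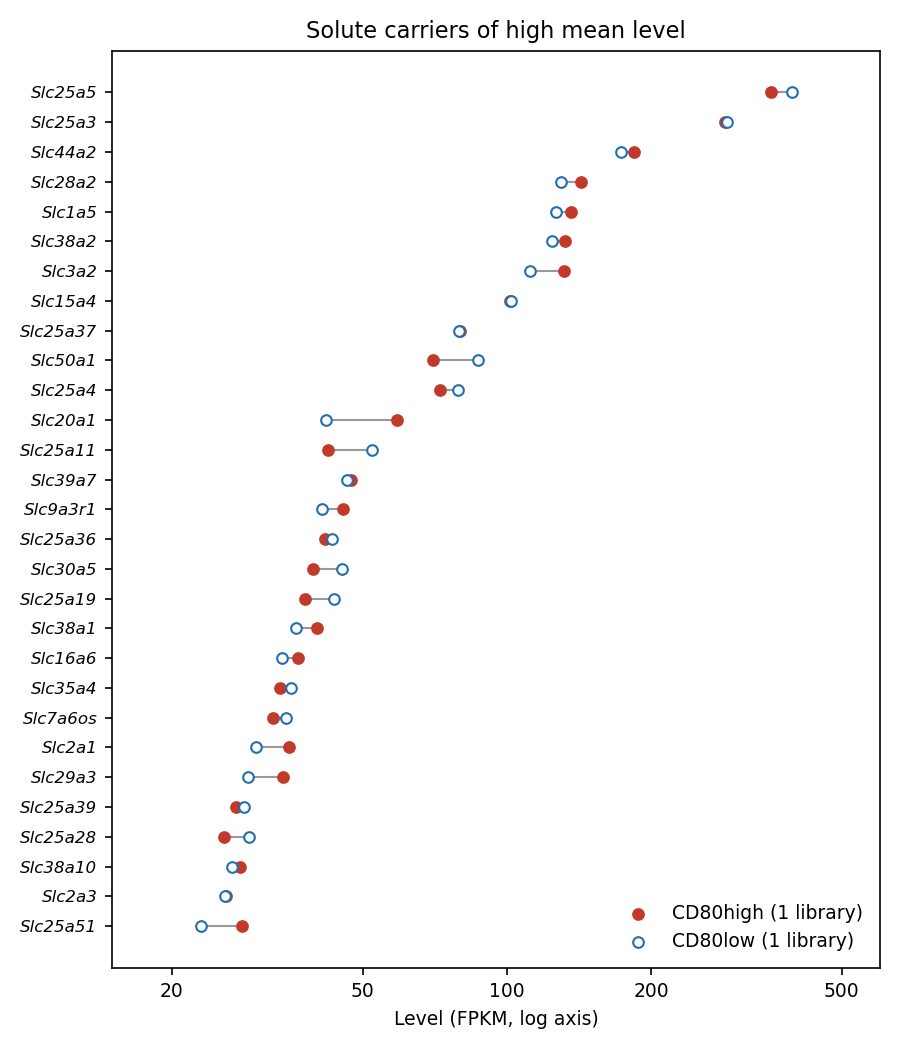
Level in FPKM (log axis) of solute carriers among the 30 symbols of highest mean, in CD80high (filled) and CD80low (open), 1 library each; lines join the libraries and are not errors. Slc25a5 leads with 355 and 394 FPKM, and Slc20a1 has the largest ratio among these genes, 59.1 against 41.9 FPKM.

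Nearly all 150 genes had similar levels in both libraries. A ratio was computed as log2((CD80high FPKM + 1)/(CD80low FPKM + 1)), where the added 1 damps the ratio of low genes, while folds are the plain quotient of FPKM values. The ratio lay within 1.5-fold for 147 of the 150. At least 1.5-fold higher in CD80high were 3 genes (2%), Slc16a13, Slc39a4 and Slc15a2, where 1.51% of all 9955 genes were. None was 1.5-fold higher in CD80low, where 0.894% of all genes were. None reached 2-fold in either direction, against 0.452% of all genes. These shares are near the background, so 1.5-fold differences were about as common among solute carriers as among all genes of this level.

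The small differences leaned toward CD80high. The ratio was above 0 for 92 of 150 genes (61.3%), beside 46.4% of all genes, and its median was 0.07 beside -0.02 for all genes. Scaling each library to the mean of both FPKM sums moved the median of all genes from -0.02 to 0.12. It then stood at 0.21 for the solute carriers, with 120 of 150 (80.0%) above 0 beside 73.8% of all genes. Across all genes the ratio went with transcript length, and part of this was seen here: of the 75 solute carriers of up to 3078 nucleotides 38 were above 0 (50.7%, all genes 34.04%), and of the 75 longer ones 54 were (72.0%, all genes 65.8%). After subtracting the median of genes of like length, the median of the 150 was 0.07 beside 0 for all genes. Of the 150, 93 were then above 0 (62%, beside 49.98% of all genes).

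**Figure D3:**
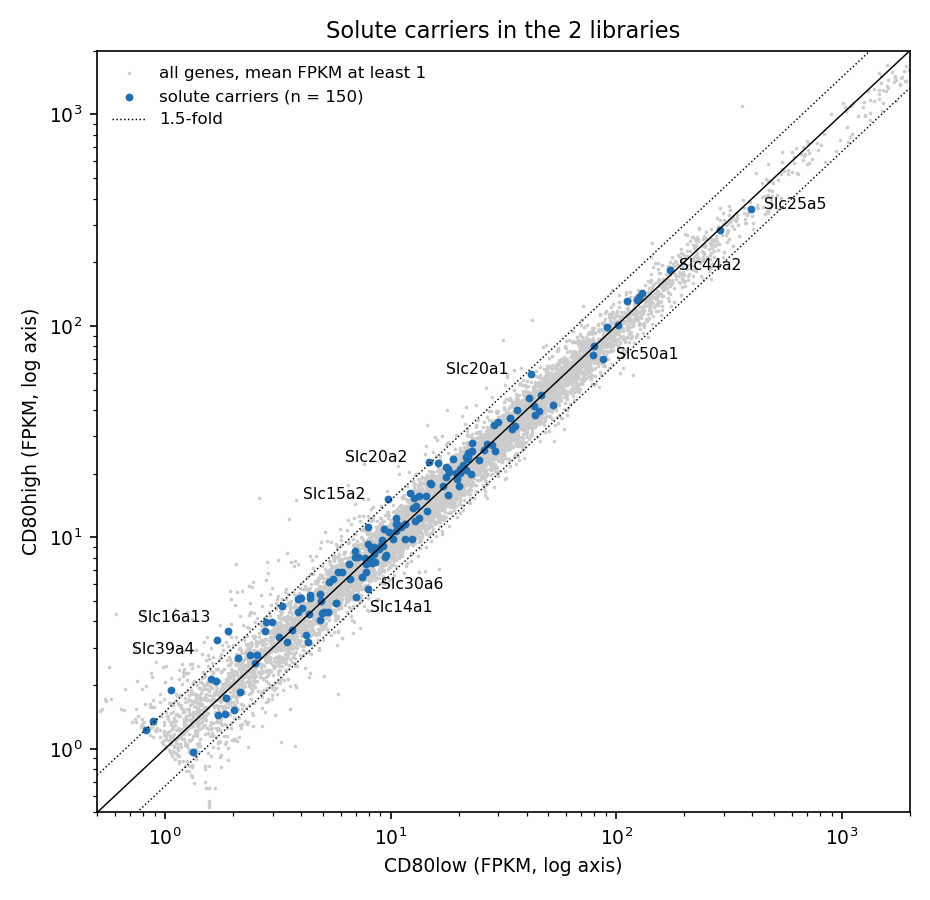
Level in CD80low (horizontal) against CD80high (vertical), in FPKM on log axes, for 150 solute carrier symbols (blue) and all genes whose mean reached 1 FPKM (grey), 1 library per group; the solid line marks equal levels and dotted lines a 1.5-fold difference of the FPKM values. Blue points keep near the solid line, and 6 of them (Slc16a13, Slc39a4, Slc25a27, Slc15a2, Slc22a3 and Slc20a2) lie past the upper dotted line, 3 of these with a ratio under the 1.5-fold limit because of the added 1.

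The promoters of 4 genes are printed because these genes had large ratios for their level: Slc15a2, Slc20a1 and Slc43a1 were higher in CD80high, and Slc30a6 had the lowest ratio of the 150. No promoter sequence was available for Slc16a13 and Slc39a4, which had the largest ratios (0.67 and 0.66), or for Slc20a2 (0.58). Each line gives, from RefSeq, the 250 bases before a transcript start annotated there, 5′ to 3′ on the gene's strand, on GRCm38.p6, the assembly of mm10. Capitals mark matches, on either strand, to the E-box CACGTG and the GC box GGGCGG; none of the matches overlap. The AP-1 motif TGANTCA and the cyclic AMP response element TGACGTCA were also searched and had no match in these windows. The regions are chr16:36784963-36785212 on the minus strand (Slc15a2), and on the plus strand chr2:129198523-129198772 (Slc20a1), chr2:84840073-84840322 (Slc43a1) and chr17:74395358-74395607 (Slc30a6). The gene coordinates given further on are those of GENCODE, whose outermost start differs for some genes: the window of Slc43a1 lies inside the gene as GENCODE bounds it, and that of Slc20a1 ends past its GENCODE start.
Slc15a2: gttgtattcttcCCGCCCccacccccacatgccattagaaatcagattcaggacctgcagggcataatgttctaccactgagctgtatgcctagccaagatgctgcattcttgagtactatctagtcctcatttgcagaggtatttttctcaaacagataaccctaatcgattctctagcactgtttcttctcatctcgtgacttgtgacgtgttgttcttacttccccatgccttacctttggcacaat
Slc20a1: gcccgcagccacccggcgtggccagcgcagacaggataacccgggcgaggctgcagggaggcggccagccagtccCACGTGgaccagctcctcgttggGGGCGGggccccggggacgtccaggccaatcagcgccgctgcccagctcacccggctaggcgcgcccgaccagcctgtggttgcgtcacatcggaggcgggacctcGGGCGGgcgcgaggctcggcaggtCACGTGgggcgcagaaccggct
Slc43a1: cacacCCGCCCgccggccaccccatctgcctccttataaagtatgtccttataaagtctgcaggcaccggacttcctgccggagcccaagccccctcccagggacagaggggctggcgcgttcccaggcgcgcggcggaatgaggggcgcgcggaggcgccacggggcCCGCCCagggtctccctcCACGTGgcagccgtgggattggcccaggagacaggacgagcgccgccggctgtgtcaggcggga
Slc30a6: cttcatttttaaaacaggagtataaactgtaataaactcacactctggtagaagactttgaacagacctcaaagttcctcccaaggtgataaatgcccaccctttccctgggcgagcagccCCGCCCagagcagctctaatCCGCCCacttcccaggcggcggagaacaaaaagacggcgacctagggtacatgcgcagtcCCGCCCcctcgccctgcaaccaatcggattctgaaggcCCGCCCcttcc

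The sequences differ in base composition. Slc20a1 had 29 CpG dinucleotides and 75.2% G or C, with 2 E-boxes and 2 GC boxes, and Slc43a1 had 24 CpG and 70.8% G or C, with 1 E-box and 2 GC boxes. Slc30a6 had 12 CpG, 54.8% G or C and 4 GC boxes, while Slc15a2 had 4 CpG, 45.2% G or C and 1 GC box. RefSeq windows were matched by symbol for 113 of the 150 genes, with the first window listed for each gene. An E-box was found in 16 of them (14.2%, beside 8.93% of the windows of 7985 genes whose mean reached 1 FPKM), and a GC box in 74 (65.5%, beside 60.9%). The AP-1 motif was found in 8 (7.08%, beside 3.77%) and the cyclic AMP response element in 2 (1.77%, beside 3.01%). The median was 16 CpG in both sets. A match describes letters in a window and does not show binding.

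Amino acid and peptide transporters were mostly higher in CD80high by small amounts. Of 22 expressed genes 19 had a ratio above 0 (86.4%, beside 46.4% of all genes), the median being 0.17 beside -0.02. Only 1 reached 1.5-fold, where 1.51% of all genes did. With libraries scaled to the mean sum 22 of 22 were above 0, beside 73.8% of all genes, with a median of 0.31 beside 0.12. Slc15a2, which encodes the proton-coupled peptide transporter PEPT2 (ENSMUSG00000022899, chromosome 16, 36750177 to 36784962, mm10, minus strand), had 15.1 FPKM in CD80high against 9.71 in CD80low. This is a 1.56-fold difference, and its approximate 95% interval, 1.37 to 1.77 (given in brackets for other genes), covers counting error only. Its relatives with lysosomal roles differed less. Slc15a4, the endolysosomal histidine and peptide transporter known to be needed for Toll-like receptor 7 and 9 responses of B cells, had 101 and 102 FPKM. The deposited locus of Slc15a4 is wider than the annotated gene, so its value is less certain. Slc15a3 had 3.20 and 3.49 FPKM, with 28.1% of its exon bases shared with Tmem132a on the opposite strand.

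Glutamine and other neutral amino acids enter lymphocytes mainly through abundant carriers, and these were nearly level between the libraries. Slc1a5, which encodes the exchanger ASCT2, had 136 FPKM in CD80high against 126 in CD80low. Slc38a2 and Slc38a1, sodium-coupled neutral amino acid transporters, had 132 against 124 FPKM and 40.2 against 36.4 FPKM, and the level of Slc38a2 was 3.30 times that of Slc38a1 in CD80high and 3.41 times in CD80low.

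Slc3a2 encodes CD98 heavy chain, the partner that brings Slc7 light chains to the cell surface. It had 132 FPKM in CD80high against 112 in CD80low, a fold of 1.18 (1.13 to 1.22). Its light chains were expressed at much lower levels: Slc7a6 at 18.9 and 19.7 FPKM, Slc7a5, the light chain of LAT1, at 15.3 and 12.7 FPKM, and Slc7a7 at 13.7 and 12.6 FPKM. The 7 genes from Slc7a5 to Slc7a11, light chains of Slc3a2 or of its relative Slc3a1, summed to 47.95 FPKM in CD80high against 45.1 in CD80low, less than Slc3a2 alone in either library. The locus given in the files for Slc7a5 spans far more of chromosome 8 than the annotated gene, so its value is less certain. The deposited locus is also wider than the gene for 11 others of the 150, among them Slc15a4, Slc16a6, Slc35a3, Slc35a4, Slc19a1 and Slc10a3.

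The other amino acid carriers with large ratios act at lysosomes or carry branched-chain and aromatic amino acids. Slc38a9, the lysosomal arginine sensor of the mTORC1 pathway (chromosome 13, 112660751 to 112738749, plus strand), reached 16.3 FPKM in CD80high against 12.1 in CD80low, a fold of 1.34 (1.28 to 1.41). Slc36a4, a proline and tryptophan transporter gene, had 4.74 and 3.30 FPKM, a fold of 1.44 (1.2496 to 1.65). Slc43a1, which encodes the system L carrier LAT3 (chromosome 2, 84838850 to 84863594, plus strand), had 11.2 and 7.90 FPKM, a fold of 1.41 (1.26 to 1.59). With like-length genes subtracted, the ratio of Slc38a9, a gene of long transcripts, went from 0.40 to 0.24, while that of Slc43a1 was 0.45 before and 0.47 after. The 10 members not named by rule had means of 4.57 to 27.2 FPKM and ratios of 0.05 to 0.31.

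Phosphate transporters stood out among the ion carriers. Slc20a1 and Slc20a2 encode the sodium-phosphate cotransporters PiT1 and PiT2 and are the entire family. Slc20a1 (ENSMUSG00000027397, chromosome 2, 129198764 to 129211616, plus strand) reached 59.1 FPKM in CD80high against 41.9 in CD80low, a fold of 1.41 (1.35 to 1.47). Slc20a2 (ENSMUSG00000037656, chromosome 8, 22476788 to 22569612, plus strand) had 22.7 and 14.9 FPKM, a fold of 1.53 (1.42 to 1.64), while its ratio of 0.58 lay just under the 1.5-fold limit. Together they summed to 81.8 FPKM in CD80high against 56.8 in CD80low, 1.44 times as much. Adjusted for length the ratios were 0.47 and 0.56. Xpr1, the gene of the phosphate exporter, which the symbol rule leaves out, had 13.9 and 12.9 FPKM.

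Of all 18 ion and pH carriers, 14 had a ratio above 0 (77.8%, beside 46.4% of all genes) and the median was 0.15 beside -0.02. With libraries scaled to the mean sum 16 of 18 were above 0 (88.9%, beside 73.8%), with a median of 0.29 beside 0.12. Slc12a2, the sodium potassium chloride cotransporter NKCC1 that moves ions inward, had 5.11 FPKM in CD80high against 3.87 in CD80low. Among the organelle sodium-proton exchanger genes, Slc9a9 had 3.97 against 2.79 FPKM, Slc9a8 25.5 against 22.9 FPKM and Slc9a7 23.9 against 22.1 FPKM. Slc4a7, a sodium bicarbonate cotransporter gene, had 23.1 and 24.5 FPKM, and Slc26a11, an anion transporter gene, 4.88 and 5.73 FPKM. A further 8 genes had ratios of 0.00 to 0.28.

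Slc30 proteins move zinc out of the cytosol and Slc39 proteins move it in. The 6 expressed Slc30 genes summed to 85.2 FPKM in CD80high against 92.3 in CD80low, and the 10 expressed Slc39 genes to 143 and 134 FPKM. Of the Slc30 genes 3 were higher and 3 lower in CD80high, and of the Slc39 genes 9 were higher. Slc39a4, which encodes the zinc importer ZIP4 known for uptake in the gut (ENSMUSG00000063354, chromosome 15, 76612383 to 76617384, minus strand), was a low gene with 3.26 FPKM in CD80high against 1.70 in CD80low. The fold was 1.92 (1.51 to 2.46), from roughly 200 and 103 fragments. In the other direction, Slc30a6 (chromosome 17, 74395608 to 74424221, plus strand) had 5.69 and 7.90 FPKM, a fold of 0.720 (0.615 to 0.841). Its product pairs with that of Slc30a5 to bring zinc into the early secretory pathway, and Slc30a5 had 39.5 and 45.4 FPKM, a fold of 0.870 (0.828 to 0.914). Slc30a4 was also lower in CD80high, at 8.04 and 9.46 FPKM, whereas Slc30a1 was higher, at 9.32 and 7.90 FPKM, as were Slc30a7 (11.6 and 10.5 FPKM) and, barely, Slc30a9 (11.17 and 11.13 FPKM).

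The most abundant zinc importer, Slc39a7, which releases zinc from the endoplasmic reticulum and is known to be needed for B cell development, was level at 47.2 FPKM in CD80high against 46.3 in CD80low. Slc39a1 had 21.9 and 20.9 FPKM and Slc39a9 had 19.3 and 17.5 FPKM. Among the carriers of other metals, Slc41a1, a magnesium transporter gene (chromosome 1, 131827493 to 131848865, plus strand), had the largest gap, with 22.4 and 16.1 FPKM and a fold of 1.38 (1.31 to 1.47). Over all 23 metal carriers 15 were higher in CD80high (65.2%, beside 46.4% of all genes) and the median ratio was 0.06 beside -0.02. With libraries scaled to the mean sum 19 of 23 were higher (82.6%, beside 73.8%), with a median of 0.21 beside 0.12. The 15 genes not named by rule had ratios of -0.15 to 0.28.

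Carriers of nucleosides, vitamins, choline and lipids were higher in CD80high in 12 of 15 cases (80%, beside 46.4% of all genes). The median ratio was 0.17 beside -0.02, with none at 1.5-fold, where 1.51% of all genes were. With libraries scaled to the mean sum 14 of 15 were higher (93.3%, beside 73.8%), with a median of 0.32 beside 0.12. Slc44a2, a choline transporter-like gene, was the third most abundant solute carrier, at 184 FPKM in CD80high against 173 in CD80low. Slc28a2, the sodium-coupled transporter CNT2 for purine nucleosides, had 143 and 130 FPKM. The equilibrative nucleoside transporters were lower in level: Slc29a3, which acts in lysosomes, had 34.1 and 28.8 FPKM, Slc29a1, which acts at the plasma membrane, 23.4 and 21.8 FPKM, and Slc29a4, which also carries monoamines, 5.17 and 3.99 FPKM. Slc46a3, a lysosomal carrier gene, had 25.3 and 22.4 FPKM.

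Vitamin carriers went both ways. Slc19a2, a thiamine transporter gene, had 3.99 FPKM in CD80high against 2.98 in CD80low, a fold of 1.34 (1.13 to 1.58). Slc19a1, the reduced folate carrier, had 11.9 and 12.9 FPKM, and Slc52a2, a riboflavin transporter gene, 4.07 and 4.87 FPKM. The 6 others of this group had ratios of -0.04 to 0.26.

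The sugar carriers did not move as a block. Slc2a1, the glucose transporter GLUT1, had 35.1 FPKM in CD80high against 29.96 in CD80low, a fold of 1.17 (1.11 to 1.24), while Slc2a3, the glucose transporter GLUT3, had 25.9 FPKM in both. Slc2a1 therefore exceeded Slc2a3 1.35-fold in CD80high and 1.16-fold in CD80low. Slc50a1, a sugar transporter gene of the SWEET family, was the most abundant of the group and lower in CD80high, at 70.0 and 87.1 FPKM, a fold of 0.804 (0.752 to 0.859). Its transcript is short, and with like-length genes subtracted its ratio went from -0.31 to -0.11. Slc2a8, an intracellular glucose transporter gene, had 4.44 and 5.09 FPKM and Slc45a4 had 8.82 and 8.85 FPKM. Slc5a3, a sodium-coupled inositol transporter gene, had 2.69 and 2.10 FPKM, and Slc5a6, the multivitamin transporter placed here by its family number, 5.19 and 4.37 FPKM. Over all 9 genes the median ratio was 0.15 beside -0.02 for all genes, and 6 were higher in CD80high (66.7%, beside 46.4%). With libraries scaled to the mean sum 7 of 9 were higher (77.8%, beside 73.8%), with a median of 0.28 beside 0.12.

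Mitochondrial carriers lay near the background of all genes. Of 37 genes 23 were higher in CD80low, where 53.5% of all genes were, and the median ratio was -0.05 beside -0.02 for all genes. When libraries were scaled to the mean sum, 23 of 37 were higher in CD80high (62.2%, beside 73.8% of all genes). The median was then 0.10 beside 0.12 for all genes. Among the 21 of up to 3078 nucleotides the median was -0.15, beside -0.08 for all genes of such length, and among the 16 longer ones 0.01, beside 0.07. As a share of the summed level of all 150 genes, mitochondrial carriers made up 33.9% in CD80high and 36.7% in CD80low. Slc25a5, which encodes the adenine nucleotide translocator ANT2 that exchanges ADP for ATP (ENSMUSG00000016319, chromosome X, 36795651 to 36798807, plus strand), was the highest of all solute carriers, at 355 FPKM in CD80high against 394 in CD80low. The fold was 0.901 (0.878 to 0.924), and its length-adjusted ratio was 0.00. Its close paralog Slc25a4, the translocator form best known from heart and muscle, had 72.5 and 78.9 FPKM. Slc25a5 exceeded Slc25a4 by 4.90 times in CD80high and 4.99 times in CD80low, so the balance of the pair was nearly the same.

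Other carriers of the inner membrane differed by little. Slc25a3, which supplies phosphate for ATP synthesis, had 285 FPKM in CD80high against 288 in CD80low. Slc25a37, the iron importer mitoferrin 1 that is best known from red cell precursors, had 80.0 and 79.4 FPKM, and its relative Slc25a28, mitoferrin 2, had 25.7 and 28.9 FPKM. The erythroid markers listed above summed to 7.20 and 4.38 FPKM, and whether red cell precursors contributed to the level of Slc25a37 was not tested. Slc25a11, the oxoglutarate and malate carrier, had 42.3 and 52.4 FPKM, a fold of 0.808 (0.759 to 0.859), and Slc25a26, which brings S-adenosylmethionine into the matrix, 3.22 and 4.31 FPKM, a fold of 0.747 (0.604 to 0.923). For both, the locus in the files is wider than the annotated gene. Slc25a35 had 1.53 and 2.03 FPKM, with 31.3% of its exon bases shared with Rangrf on the opposite strand.

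Of the 37 mitochondrial carriers 14 were higher in CD80high (37.8%, beside 46.4% of all genes). Slc25a51, which brings NAD into mitochondria, had 27.98 FPKM in CD80high against 23.03 in CD80low, a fold of 1.21 (1.153 to 1.28). Slc25a27, the uncoupling protein homologue UCP4, had 1.89 and 1.06 FPKM, a fold of 1.79 (1.26 to 2.49) from roughly 100 and 56 fragments, and a ratio of 0.49. Slc25a42, the coenzyme A carrier, had 2.76 and 2.37 FPKM. The 26 genes not named by rule, Slc25a28 among them, had means of 1.58 to 42.4 FPKM and ratios of -0.20 to 0.15.

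Carriers that feed the Golgi and the endoplasmic reticulum were higher in CD80low in 7 of 10 cases, where 53.5% of all genes were, with a median ratio of -0.05 beside -0.02. Scaled to the mean sum, 7 of 10 were higher in CD80high (70%, beside 73.8% of all genes). The median was then 0.10 beside 0.12 for all genes. With length adjustment 6 of 10 were higher in CD80low, as were 4974 of all 9955 genes. Slc35a1 supplies CMP-sialic acid for sialylation (chromosome 4, 34663257 to 34687438, minus strand) and had 9.78 FPKM in CD80high against 12.5 in CD80low, a fold of 0.784 (0.697 to 0.883). Slc35a2, the UDP-galactose carrier, had 13.3 and 14.5 FPKM, Slc35a3, a UDP-N-acetylglucosamine carrier, 20.2 and 20.3 FPKM, and Slc35a4 33.7 and 35.5 FPKM. Slc33a1, which brings acetyl-CoA into the endoplasmic reticulum, had 6.52 and 7.44 FPKM. The sugar phosphate carriers Slc37a4, which moves glucose 6-phosphate into the endoplasmic reticulum, and Slc37a2 were higher in CD80high, at 21.1 against 17.9 FPKM and 17.8 against 15.1 FPKM.

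Among carriers of monocarboxylates and other organic anions and cations, 7 of 12 had a ratio above 0 (58.3%, beside 46.4% of all genes). The median was 0.04 beside -0.02. With libraries scaled to the mean sum 9 of 12 were above 0 (75%, beside 73.8%), with a median of 0.18 beside 0.12. Slc16a13, a member of the monocarboxylate transporter family (ENSMUSG00000044367, chromosome 11, 70216789 to 70221064, minus strand), had the largest ratio of all 150 genes. It had 3.62 FPKM in CD80high against 1.90 in CD80low, a fold of 1.91 (1.53 to 2.40) from roughly 234 and 121 fragments. Slc16a6 was the most abundant of the group at 36.6 and 33.9 FPKM, with 22.5% of its exon bases shared with other genes. Slc16a1, the lactate transporter MCT1, had 8.84 and 8.42 FPKM. Slc16a10, an aromatic amino acid transporter gene, was lower in CD80high at 3.45 and 4.20 FPKM, as was Slc10a3 at 9.80 and 11.6 FPKM. Slc10a7 had 10.7 and 10.6 FPKM, the vesicular nucleotide carrier Slc17a9 9.82 and 10.2 FPKM, and Slc22a17, a lipocalin receptor gene, 3.60 and 2.79 FPKM.

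The single carrier outside these groups was Slc14a1, a urea transporter gene, with 5.22 FPKM in CD80high against 7.01 in CD80low, a fold of 0.745 (0.637 to 0.867). The symbol rule also takes 3 genes that are not carriers themselves. They were Slc9a3r1, the scaffold protein NHERF1 (45.5 and 41.2 FPKM), Slc7a6os, named for its place opposite Slc7a6 (32.5 and 34.6 FPKM), and Slc4a1ap, an adaptor protein gene (21.1 and 20.3 FPKM). Without them the median ratio was 0.07.

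**Figure D4:**
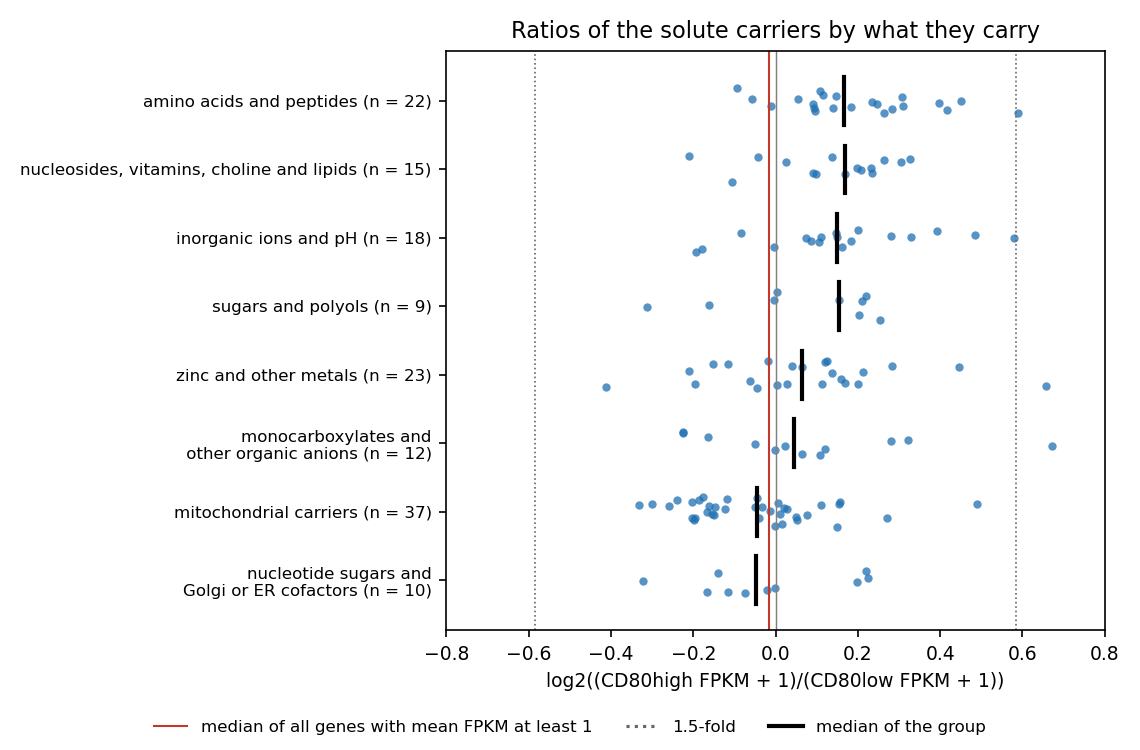
Ratio, log2((CD80high FPKM + 1)/(CD80low FPKM + 1)), of each expressed solute carrier (points, spread vertically for view), grouped by what its family carries, with the median of each group (black bar), the median of all genes (red line) and 1.5-fold (dotted). Medians run from 0.17, for the nucleoside, vitamin, choline and lipid carriers and for the amino acid and peptide carriers, to -0.05 for the mitochondrial and the Golgi and endoplasmic reticulum carriers. When scaled to the mean sum (not drawn) the first 2 medians are 0.32 and 0.31, the last 2 are 0.10, and that of all genes is 0.12. Past the upper dotted line lie 3 points.

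**Figure D5:**
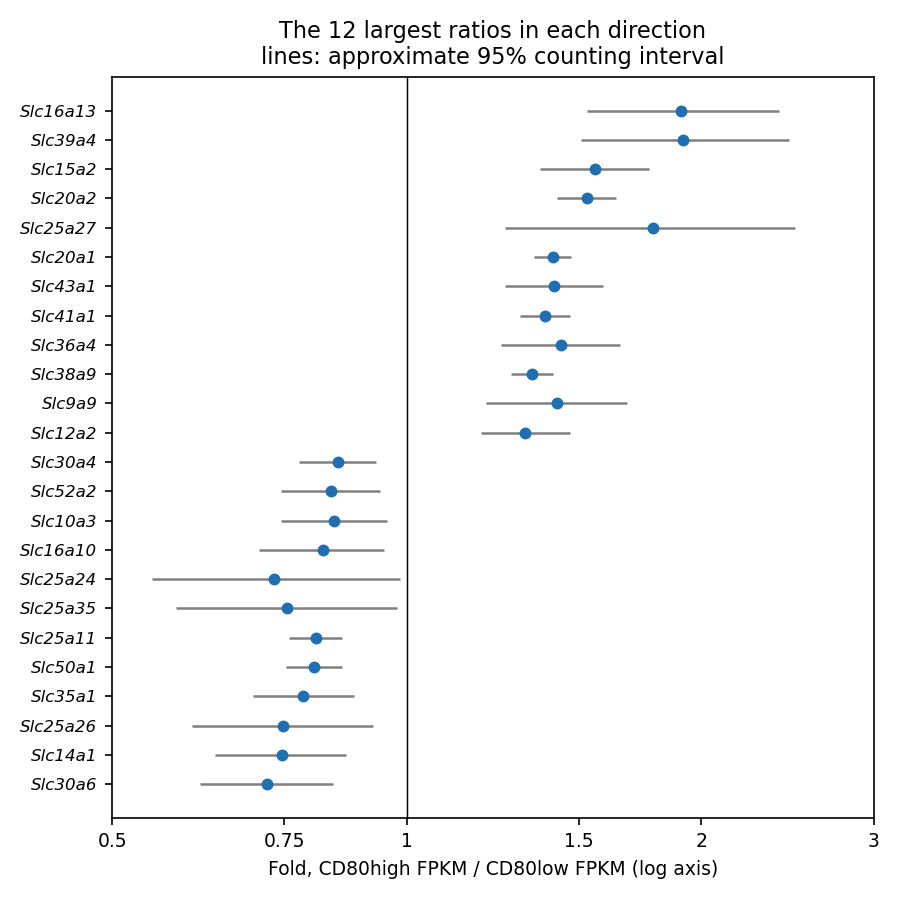
Fold (CD80high FPKM over CD80low FPKM, log axis) of the 12 solute carriers with the largest ratio in each direction, ordered by ratio, with approximate 95% counting intervals (lines), which leave out variation between animals and library preparations. Slc16a13 and Slc39a4 lead with folds of 1.91 and 1.92, and Slc30a6 is lowest at 0.720.

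Transporter genes that the symbol rule leaves out were also mostly of similar level in both libraries. Of 41 on the list 37 were expressed, 24 of them with a ratio above 0, where 46.4% of all genes were. Their median was 0.03, beside 0.07 for the solute carriers and -0.02 for all genes. At 1.5-fold was 1 gene, where 1.51% of all genes were. That gene was Emb, which encodes embigin, a partner of monocarboxylate transporters at the cell surface. It had 7.74 FPKM in CD80high against 3.78 in CD80low, a fold of 2.05 (1.77 to 2.38). Bsg, which encodes basigin, the other partner of these transporters, had 79.2 and 78.6 FPKM. Ucp2, a mitochondrial carrier gene without an Slc symbol, had 472 and 442 FPKM and so exceeded Slc25a5 in both libraries. Slc35c2 had 64.9 and 67.2 FPKM.

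In the authors' deposited table all 150 genes were tested, and 4 (2.67%) had a p-value of at most 0.05 and were higher in CD80high, where 1.55% of 9959 tested rows whose mean reached 1 FPKM did. They were Slc15a2 with a p-value of 0.01755, Slc39a4 with 0.0187, Slc20a2 with 0.0356 and Slc20a1 with 0.0439 in the authors' deposited table. None was higher in CD80low at that p-value, where 0.542% of rows in the authors' deposited table were. The q-value of each of the 150 in the authors' deposited table was at least 0.999. Those p-values compare 1 library with 1 library and not the populations.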

How the data were processed

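Messenger RNA of 2 libraries was sequenced, 1 of CD80high and 1 of CD80low marginal zone B cells. The submitters' processing notes name FastQC 0.11.5, STAR 2.6, Cuffnorm, Cuffdiff, Cufflinks 2.2.1 and the build mm10. The values deposited by the authors are FPKM, a unit taken from these tools and from the values. Each gene also has a p-value and a q-value, which the authors computed, per the file headers. The authors' log2 ratio was not used. No source used here states the strand setting of the counting.

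Repeated symbols were summed. The 150 genes, the groups by family number and the lists were chosen with earlier results of these data known. Named were, per group, the 5 of highest mean and the 2 largest ratios each way (mean at least 2 FPKM), over all genes the 12 largest each way, those at 1.5-fold and the 3 nearest the limit, besides partners of these. Slc25a28, Slc30a1, Slc30a7, Slc30a9, Xpr1, Slc40a1, Slc11a1, Slc4a1 and Slc7a11 were chosen after their values were seen. Some genes that the rule names are not reported here.

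Depth was estimated from genes with 1 transcript of over 3000 nucleotides, as the total that puts low values (under 0.35 FPKM times kilobases) nearest to whole fragments. Fragments per gene used the median length of protein-coding transcripts in the basic set of GENCODE M21 (GRCm38), matched by Ensembl identifier for all 150 genes. Intervals of a fold are exact Clopper-Pearson intervals on those fragments, cover counting error only and are approximate. The depth and ratio steps were also run on simulated counts. Depth was estimated there with the lengths used to draw the counts, so errors of length or library scaling were not tested. Length adjustment subtracted the median ratio of each of 20 length groups. Calculations used scipy 1.17.1, numpy 2.4.6 and pandas 2.3.3 under Python 3.11.15, and plots matplotlib 3.10.9.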

Additional observations from a re-analysis of the deposited data

How the results depend on the processing

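The number of solute carriers at least 1.5-fold higher in CD80high was 3 of 150 (1.51%). Percentages in brackets here are the shares of all genes under the same setting. It was 5 with a pseudocount of 0.1 (2.35%), 0 with a pseudocount of 5 (0.472%) and 7 with libraries scaled to the mean sum (2.72%). With a mean of at least 5 FPKM it was 1 of 111 (0.908%), and with at least 0.5 FPKM 4 of 158 (1.77%). It was 4 with centring (1.59%) and 3 with length adjustment (1.70%). At 1.5-fold in the other direction, and at 2-fold, it was 0 under every alternative run. The median ratio, 0.0689, stayed above 0 under every alternative run. It was 0.0755 and 0.0498 with pseudocounts of 0.1 and 5, 0.0641 and 0.0646 with limits of 5 and 0.5 FPKM, 0.0843 with centring, 0.208 with scaling to the mean sum and 0.0657 with length adjustment, and 0.0882 without genes whose locus is wide in the files or whose exons are shared, an alternative chosen after seeing the data. Of 734 single-gene values for 77 genes, 59 moved by more than the counting interval, 45 with scaling, 11 with length adjustment and 3 with a pseudocount of 5. The other 675 are no measure of stability, because many could not move. Other limits on level and leaving genes out do not change the ratio of a gene that stays, and centring shifts every ratio by the same small amount. No paired analysis was possible because neither population had more than 1 library, and no replicate could be left out. The depth behind the intervals is an estimate from low values.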
